A study of Mus musculus with 27 samples.

Results

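Mouse calvarial cells of the osteoblast lineage were compared on day 2 and day 4 of differentiation, the first step of a differentiation series that ran to day 18. The comparison took the 3 expression profiles labelled day 2 and the 3 labelled day 4, 6 of the 27 profiles in the series, and the 13825 genes of 37991 that had at least 30 counts over those 6 profiles. Cells of both days came from the skull caps of C57BL/6J-Col3.6 CFP pups aged 5 to 9 days. This strain carries cyan fluorescent protein under a fragment of a type I collagen promoter, which marks early osteoblast-lineage cells and can also be active in other collagen-making fibroblastic cells. The digested cells were grown for 4 days, CFP-expressing cells were collected by flow sorting, and these were returned to culture in medium with ascorbic acid, beta-glycerol phosphate and serum. Day 2 and day 4 shared genotype, sorting procedure and medium, so time in culture was their only labelled difference. The study's methods do not say whether both days came from a single sort, and the number of pups behind a day was not given.

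The study's methods speak of samples in triplicate at each time point, without saying whether these were separate cultures. The sample names likewise number 3 replicates for each day, but the 3 profiles of a day carried a single library barcode and came from 3 sequencing lanes. Over genes with whole-number counts they differed by no more than counting noise, with a chi-square per degree of freedom of 1.00 on day 2 and 1.01 on day 4. Each day was therefore counted as 1 library, which left no replicate error and no test of the days. Differences in library preparation cannot be told apart from differences between the days. Profiles held 13794218 to 14248738 counts, and the summed libraries held 42280394 counts on day 2 and 42301655 on day 4. Genes of the mitochondrial genome took 22.9% of counts on day 2 and 23.8% on day 4. Differences are given as the ratio of counts scaled by upper-quartile factors, with an exact 95% interval that covers counting error only. A gene was called when its ratio reached 2-fold either way, and levels are given as CPM, counts over the scaled library size, for 1 gene between days, or as TPM, which account for transcript length, between genes.

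Osteoblasts first proliferate, then deposit a matrix built mainly of type I collagen, and finally mineralize it. Runx2 and Sp7 (osterix) are transcription factors needed for osteoblast formation, tissue-nonspecific alkaline phosphatase (Alpl) prepares the matrix for mineral, and bone morphogenetic protein (BMP) signalling promotes these steps. Cells of this lineage also make chemokines, prostaglandins and cytokines that act on blood-forming cells and on bone-resorbing osteoclasts. Prostaglandin E2 is made by release of arachidonic acid, its oxidation by the cyclooxygenases Ptgs1 and Ptgs2, and a terminal synthase, and it acts on a family of membrane receptors.

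From day 2 to day 4, 702 genes (5.08% of those compared) were at least 2-fold higher on day 4 and 325 (2.35%) were at least 2-fold lower, while 12798 stayed within 2-fold. The median log2 ratio over all compared genes was -0.00065. The lower genes included the osteoblast genes Alpl and Sp7, and the higher genes included interferon-stimulated genes, Apod, Mmp13 and Lum. Among the 8 steps between neighbouring days, this one had 7.43% of compared genes past 2-fold, against 9.35% from day 8 to day 10 and 5.15% to 6.58% at the other 6. The step from day 2 to day 4 was the largest of the 8 for 17.6% of compared genes.

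**Figure D1:**
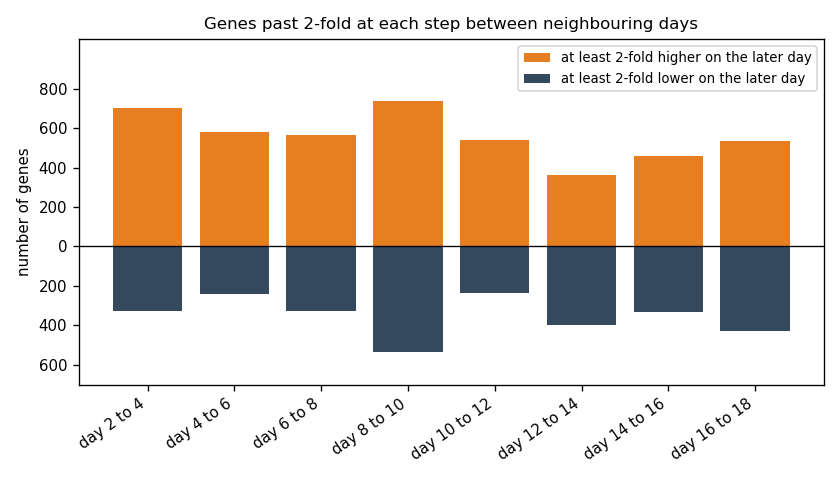
Number of genes at least 2-fold higher (upward bars) or lower (downward bars) on the later day, for each step between neighbouring days, 1 library per day. The step from day 2 to day 4 had 702 higher and 325 lower genes, and only the step from day 8 to day 10 had more in sum, with 740 and 533.

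The inflammatory genes did not move as a block. Of 101 chemokine, cytokine, NF-kB and acute-phase genes listed, 72 had enough counts, and of these 14 (19.4%) were at least 2-fold higher on day 4 and 2 (2.78%) at least 2-fold lower, against 5.08% and 2.35% of all compared genes. The median log2 ratio was 0.34. The members that moved included genes for an alarmin, a receptor and a receptor antagonist of the interleukin-1 family, an adhesion molecule and plasma proteins. Il1b, Nos2, Saa1, Saa2, Ccl3 and Ccl4 had 0 counts in both libraries, where a count of 0 allows a level of up to 0.0721 CPM on day 2 and 0.0701 on day 4. Tnf, Lcn2 and Saa3 had 0 counts on day 2 and 1 count each on day 4.

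Chemokines of the CXC and CX3C classes, which attract neutrophils, lymphocytes or progenitor cells, all had day-4 values above day 2. That held for 9 of 9 compared members, while 50.1% of all compared genes lay below day 2. Of the 9, 2 (22.2%) were at least 2-fold higher, against 5.08% of all compared genes. The median log2 ratio was 0.69. Cxcl10, a chemokine induced by interferons, read 1.69, 0.856 and 0.784 CPM in the 3 day-2 profiles and 4.23, 4.79 and 4.30 CPM in the 3 day-4 profiles. Its level was 4.02-fold higher on day 4 (counting interval 2.90 to 5.68), and the profiles of the days did not overlap. For scale, the profiles did not overlap for 57.6% of all compared genes. Cxcl12, the ligand of Cxcr4 that holds blood-forming cells in marrow, read 39.5, 39.1 and 40.9 CPM on day 2 and 79.7, 78.0 and 83.9 CPM on day 4, which was 2.02-fold higher (1.91 to 2.14). This sat at the threshold, and with TMM or DESeq2 scaling its log2 ratio was 0.995 or 0.973. Ppbp, the precursor of a platelet-type chemokine, went from 40.1 to 79.3 TPM with a ratio of 1.86 (1.72 to 2.02), and the neutrophil attractant Cxcl5 had a ratio of 1.00 (0.924 to 1.09).

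CC chemokines split. Of 7 compared members, Ccl11 (eotaxin, an attractant of eosinophils) was 10.5-fold higher on day 4 (4.24 to 33.7) with 5 counts on day 2 and 54 on day 4. Ccl17, a ligand of Ccr4, was 2.64-fold lower (1.39 to 5.30) with 36 and 14 counts, and its log2 ratio was -0.91 without the third lane. The monocyte attractants were the abundant members and stayed within 2-fold. Ccl2 stood at 77.1 TPM on day 2 and 68.4 TPM on day 4, and Ccl7 at 130 and 172 TPM.

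Among 23 compared cytokines and their receptors, 3 were at least 2-fold higher and 1 at least 2-fold lower. The shares over all compared genes were 5.08% higher and 2.35% lower. Il33, an alarmin of the interleukin-1 family, read 0.663, 1.50 and 0.998 CPM on day 2 and 4.80, 6.04 and 5.55 CPM on day 4, a 5.18-fold higher level (3.74 to 7.32). Its receptor Il1rl1, which is also made as a soluble decoy, read 91.1, 92.3 and 97.0 CPM on day 2 and 195, 195 and 194 CPM on day 4, a 2.08-fold higher level (2.01 to 2.17). Il1rn, the natural antagonist of interleukin-1, was 2.81-fold higher (2.38 to 3.32). All 3 thus had every day-4 profile above every day-2 profile, while profiles did not overlap for 57.6% of all compared genes. They parted later in the series, since Il33 reached 74.4 TPM on day 18 while Il1rl1 was highest on day 4 at 124 TPM and stood at 4.75 TPM on day 18. Il6 had only 51 counts on day 2 and 58 on day 4. Tslp, an epithelial-type cytokine, had 51 and 21 counts and was 2.50-fold lower (1.47 to 4.37), with a log2 ratio of -0.95 without the third lane.

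Among the cytokines through which osteoblasts govern osteoclasts, Csf1 and Tnfrsf11b lay below day 2 and Tnfsf11 was level. Csf1, the macrophage growth factor and an abundant transcript at 848 TPM on day 2, had a day-4 level of 550 TPM and was 1.64-fold lower (1.62 to 1.66). Tnfrsf11b (osteoprotegerin), the decoy for RANKL, was 1.94-fold lower (1.84 to 2.05) and went from 55.2 to 30.3 TPM. For both genes this was the largest of their 8 steps. Tnfsf11, which encodes RANKL itself, had 134 counts on each day and a ratio of 0.973 (0.760 to 1.25).

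Of 33 compared genes of NF-kB feedback, acute-phase and innate responses, 8 (24.2%) were at least 2-fold higher and 0 lower. The shares over all compared genes were 5.08% and 2.35%. Cp (ceruloplasmin, the copper-carrying ferroxidase) was 4.64-fold higher (3.96 to 5.46), Ch25h (cholesterol 25-hydroxylase) 3.00-fold (1.89 to 4.91) and Steap4 (a metalloreductase) 2.59-fold (1.74 to 3.93). Vcam1, an adhesion molecule for leukocytes, was the most abundant of the 8, with 120, 123 and 118 CPM on day 2 and 263, 262 and 268 CPM on day 4, a 2.20-fold higher level (2.12 to 2.27). The other 4 were Mt2, Traf1, C1s and Irf1, between 2.09-fold and 2.45-fold higher, of which Traf1, with 19 and 47 counts, had a log2 ratio of 0.961 without the first lane. The feedback inhibitors of NF-kB did not share this direction. Nfkbia had a log2 ratio of -0.55 and Tnfaip3 of -0.56. Cp, C1s and Ch25h had fractional counts, a sign of reads shared with other genes, so their values are less certain.

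**Figure D2:**
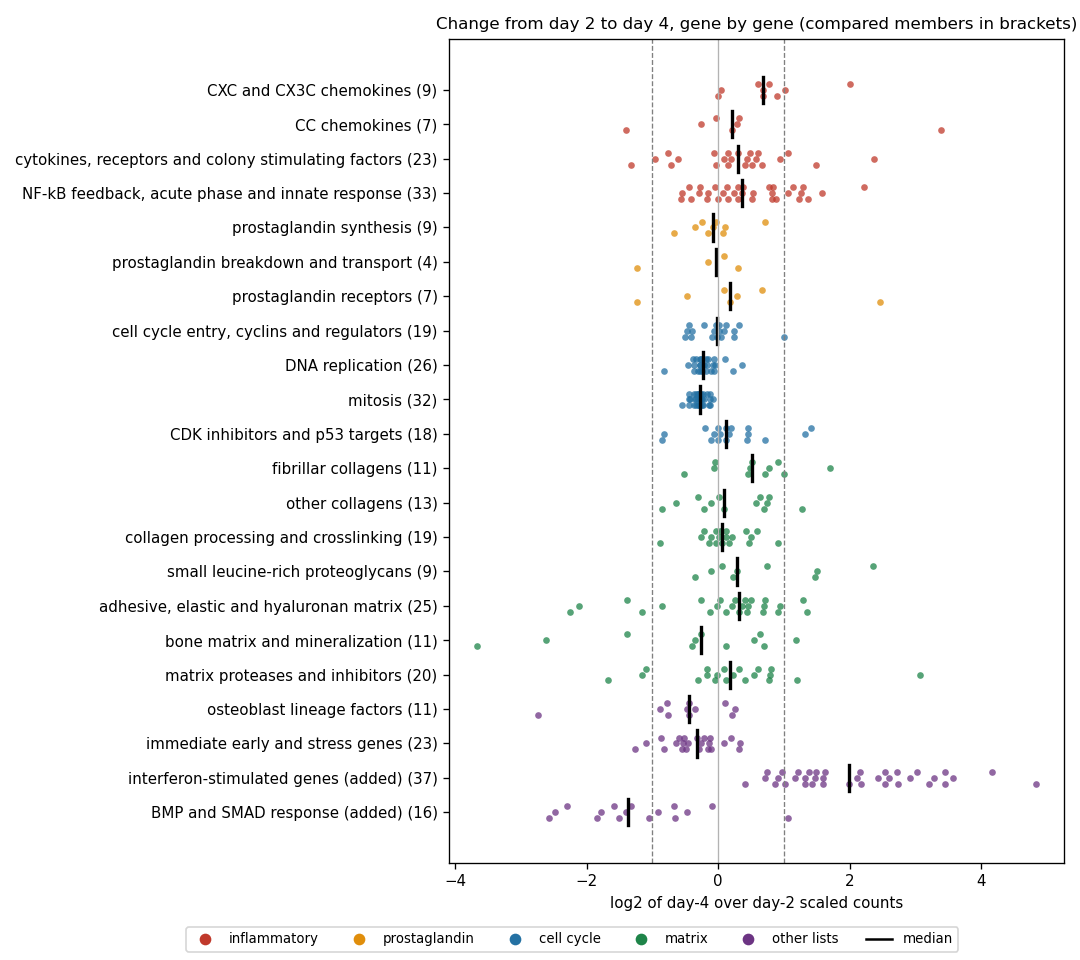
Log2 ratio of day-4 over day-2 scaled counts for each compared member of 22 gene lists. Points are genes coloured by theme, black bars are list medians and dashed lines mark 2-fold. Mitosis genes lie in a narrow band below 0, interferon-stimulated genes lie to the right with a median of 1.99 and BMP and SMAD genes to the left with a median of -1.37. The interferon and BMP lists were drawn up after the values were seen.

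Prostaglandin genes were mostly level across this step. Of 29 listed genes 20 were compared, with a median log2 ratio of 0.02. Of the 20, 1 (5%) was at least 2-fold higher and 2 (10%) at least 2-fold lower, against 5.08% and 2.35% of all compared genes. In the synthesis pathway, 0 of 9 compared genes passed 2-fold, but the cyclooxygenases went in opposite directions. Ptgs2, the inducible cyclooxygenase (chr1:151947254-151955140 of NCBIM37), read 982, 977 and 972 CPM on day 2 and 619, 610 and 603 CPM on day 4, which was 1.60-fold lower (1.58 to 1.62). Ptgs1, the constitutive form, read 48.7, 50.4 and 49.2 CPM on day 2 and 82.5, 80.5 and 81.4 CPM on day 4, which was 1.65-fold higher (1.56 to 1.74). Ptgs2 stayed the more abundant form, at 240 against 52.0 TPM on day 4. Its level went on down in the later libraries, to 1.81 TPM on day 18, below the 19.2 TPM of Ptgs1.

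Enzymes on either side of the cyclooxygenases differed less. Pla2g4a, the cytosolic phospholipase that frees arachidonic acid, was 1.28-fold lower (1.23 to 1.32). Ptges, the inducible prostaglandin E synthase, had a ratio of 1.06 with an interval of 0.993 to 1.13 that held 1. The prostacyclin synthase Ptgis (1.03-fold lower) and Ptges2, Fam213b, Akr1b3 and Ptges3 lay between 1.18-fold lower and 1.07-fold higher. Akr1b3 and Ptges3 had fractional counts. Pla2g2a, Pla2g5, Ptgds, Hpgds and Tbxas1 had at most 14 counts in sum and were not compared.

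The 3 genes past 2-fold took part in uptake and sensing. Slco2a1, the carrier that takes prostaglandins into cells for breakdown, read 117, 119 and 118 CPM on day 2 and 52.4, 49.7 and 48.4 CPM on day 4, which was 2.36-fold lower (2.24 to 2.49) and the largest of its 8 steps. Abcc4, which exports prostaglandins, was 1.23-fold higher (1.11 to 1.37), the reductases Ptgr1 and Ptgr2 lay within 1.11-fold, and the dehydrogenase Hpgd had 15 and 11 counts. Among receptors, Ptgfr, for prostaglandin F2alpha, read 0.589, 0.285 and 0.285 CPM on day 2 and 1.86, 2.71 and 1.80 CPM on day 4, a 5.54-fold higher level (3.23 to 10.1). Tbxa2r, the thromboxane receptor, read 4.79, 4.71 and 4.85 CPM on day 2 and 2.01, 1.87 and 2.22 CPM on day 4, which was 2.35-fold lower (1.82 to 3.06). Both receptors were rare, at no more than 4.60 TPM. In neither did the profiles of the days overlap, and that held for 57.6% of all compared genes.

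The remaining receptors stayed within 2-fold. Ptgir, for prostacyclin, was 1.58-fold higher (1.30 to 1.94). Of the 4 prostaglandin E2 receptors, Ptger4 was 1.21-fold higher (1.02 to 1.44), Ptger1 1.14-fold higher (0.997 to 1.30) and Ptger2, with 27 and 20 counts, 1.39-fold lower (0.750 to 2.61), while Ptger3 had 2 and 6 counts and was not compared. Ptgfrn, a partner protein of the prostaglandin F2alpha receptor, had a ratio of 1.06. The prostaglandin D2 receptors Ptgdr and Ptgdr2 had too few counts to compare.

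**Figure D3:**
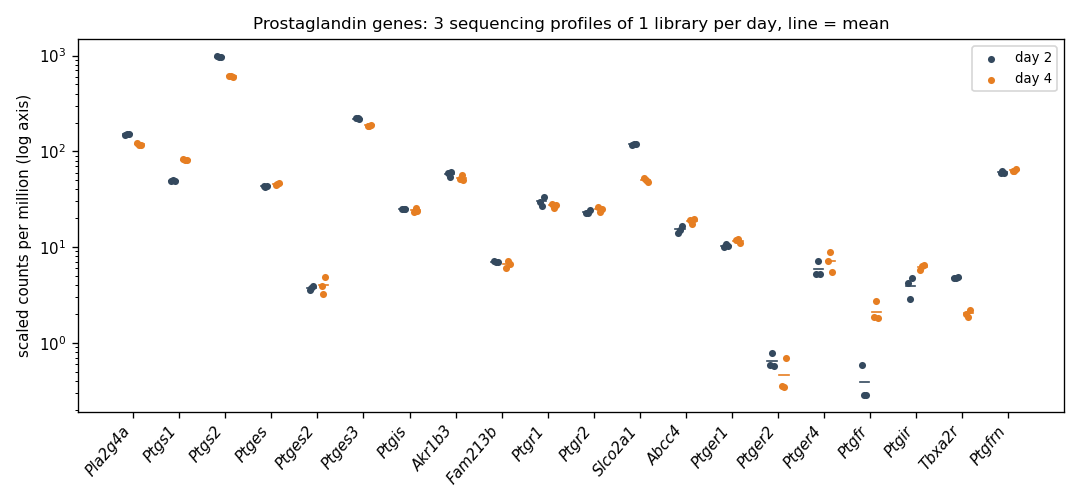
Scaled CPM on a log axis for the 20 compared prostaglandin genes, with 3 points for the 3 lanes of each day's single library and a line at their mean. Ptgs2 and Slco2a1 sit lower on day 4 while Ptgs1 and Ptgfr sit higher, and most other genes lie nearly level.

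Cell cycle genes changed little in size, and those of mitosis moved in step. Of 95 compared genes, 3 (3.16%) were at least 2-fold higher on day 4 and 0 were lower, against 5.08% and 2.35% of all compared genes. All 32 mitosis genes lay below their day-2 level, against 50.1% of all compared genes, by 1.05-fold to 1.47-fold, with a median log2 ratio of -0.28. The number was 32 under each of the 4 other scalings of the counts and 29 in deposited TPM. Top2a, which untangles chromosomes, read 215, 214 and 205 CPM on day 2 and 169, 181 and 176 CPM on day 4, a log2 ratio of -0.27 with an interval of 1.17-fold to 1.24-fold lower. Cdc20, which triggers the exit from mitosis, was 1.28-fold lower (1.19 to 1.38), Ccnb1, the mitotic cyclin, 1.21-fold lower (1.15 to 1.27) and the proliferation marker Mki67 1.09-fold lower (1.07 to 1.12). The decline was not kept, since Mki67 stood at 42.7 TPM on day 2, 41.4 on day 4 and 57.4 on day 6 before it reached 13.3 on day 18, and 27 of the 32 mitosis genes were highest on day 6 or day 8.

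The promoters of mitosis genes are shown as background to this list. Of the 32 genes, 29 matched 30 RefSeq promoter windows (GRCm38.p6, 250 bases before to 50 after the start), and TTTGAA, the letters of the cell cycle homology region, stood on either strand in 66.7% of them, against 17.9% of all 32851 windows. CCAAT stood in 80.0%, against 37.4% of all windows. The sequences below run 5′ to 3′ along the gene, with TTTGAA in capitals, from chr4:118437344-118437381 for Cdc20 and chr11:99024343-99024388 for Top2a, both on the minus strand.
Cdc20: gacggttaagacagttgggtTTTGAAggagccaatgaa
Top2a: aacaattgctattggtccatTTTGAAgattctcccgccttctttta
In Cdc20 the match lies 13 to 18 bases before the start and in Top2a 174 to 179 bases before it. Such matches describe letters in the windows of the listed genes and were not tested as binding sites. They were not compared with the change of each gene.

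Replication genes showed the same direction with more exceptions. Of 26 compared, 23 lay below their day-2 level (18 in deposited TPM), with a median log2 ratio of -0.22 and none past 2-fold. The furthest was Rrm2, a subunit of ribonucleotide reductase, with 192, 186 and 195 CPM on day 2 and 110, 107 and 108 CPM on day 4, which was 1.77-fold lower (1.70 to 1.83). The helicase subunits Mcm2 and Mcm5 were 1.18-fold and 1.24-fold lower, while Gins1, Cdc45 and Tk1 lay above day 2, with log2 ratios of 0.36, 0.22 and 0.11. Regulators of entry into the cycle had no common direction. The cyclins Ccnd1 and Ccne1 were 1.18-fold and 1.25-fold higher and Myc was 1.33-fold lower, and E2f2 was 2.01-fold higher (1.27 to 3.25) on 29 and 60 counts, a call lost with TMM or DESeq2 scaling and without the second lane.

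Of 18 compared CDK inhibitors and p53 targets, 2 (11.1%) were at least 2-fold higher, against 5.08% of all compared genes. Cdkn1c (p57), an inhibitor that restrains the G1 phase, read 5.23, 4.35 and 4.56 CPM on day 2 and 11.7, 12.3 and 13.5 CPM on day 4, which was 2.66-fold higher (2.25 to 3.15). Gas1, a membrane protein of growth-arrested cells, was 2.51-fold higher (2.29 to 2.77). Both stood far higher on day 12, at 267 TPM for Cdkn1c and 284 TPM for Gas1. Cdkn1a (p21), the most abundant of the list at 2368 TPM on day 2, was 1.08-fold lower, and the stress genes Gadd45b and Gadd45g had log2 ratios of -0.82 and -0.85.

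Matrix genes changed in both directions. Of 108 compared, 11 (10.2%) were at least 2-fold higher and 10 (9.26%) at least 2-fold lower, against 5.08% and 2.35% of all compared genes, with a median log2 ratio of 0.21. Of 33 compared collagens and small proteoglycans, 23 lay above day 2 and 10 below, and 6 were called higher and 0 lower. The furthest below was Col8a2, a short-chain collagen, at 1.81-fold (1.64 to 2.00). The 10 lower genes included Alpl, Ibsp and Smpd3 of mineralizing bone, Acan of cartilage, Tnn, Eln and Ctgf, and regulators of proteases such as Plaur and Timp3.

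Among 11 fibrillar collagens, 8 lay above day 2 and the median log2 ratio was 0.51. Col3a1, a collagen of young and pliable connective tissue (chr1:45368383-45406551 of NCBIM37), read 491, 498 and 492 CPM on day 2 and 1598, 1602 and 1625 CPM on day 4, which was 3.26-fold higher (3.21 to 3.31) and the largest of its 8 steps. The chains of type I collagen, the main protein of bone, were more abundant and changed less. Col1a1 was 1.37-fold higher (1.36 to 1.38) and went from 1526 to 2237 TPM, and Col1a2 was 1.42-fold higher (1.41 to 1.43). Col5a3 was called at 2.01-fold (1.57 to 2.58) on 98 and 202 counts, a call lost with TMM, DESeq2 scaling or deposited TPM. Col2a1, the collagen of cartilage, was 1.43-fold lower (1.39 to 1.46). Of the 13 other collagens only Col18a1, a basement membrane collagen, passed 2-fold, at 2.41-fold higher (2.08 to 2.81), and 0 of 19 genes for processing and crosslinking passed it. Lox, which crosslinks collagen, was 1.10-fold lower and Adamts2, which trims procollagen, had a log2 ratio of 0.92.

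Of 9 small leucine-rich proteoglycans, which bind collagen and regulate fibril width, 3 (33.3%) were called and all were higher. Among all compared genes, 5.08% were at least 2-fold higher. Lum (lumican) read 31.9, 32.3 and 32.9 CPM on day 2 and 165, 168 and 167 CPM on day 4, which was 5.14-fold higher (4.85 to 5.46). Aspn (asporin) was 2.82-fold higher (2.68 to 2.98) and Dcn (decorin) 2.77-fold higher (2.63 to 2.92). For all 3 the first step was the largest of 8. Bgn (biglycan), by far the most abundant at 1946 TPM on day 2, had a ratio of 1.04.

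Adhesive and elastic components divided. Thbs2, a matricellular protein that regulates fibril assembly, read 540, 538 and 534 CPM on day 2 and 1390, 1386 and 1364 CPM on day 4, which was 2.57-fold higher (2.53 to 2.61). Fbln1 (fibulin-1) was 2.45-fold higher (2.22 to 2.70), and Fn1 (fibronectin), at 898 TPM on day 2 and 1809 on day 4, was 1.89-fold higher (1.88 to 1.90). On the lower side stood Acan, the large proteoglycan of cartilage, at 4.77-fold (3.52 to 6.60), and Tnn (tenascin-N), at 4.32-fold (4.08 to 4.57). Eln (elastin) was 2.61-fold lower (1.95 to 3.51). Ctgf, a matricellular growth factor that responds to TGF-beta and to cell stretch, read 795, 804 and 798 CPM on day 2 and 360, 346 and 364 CPM on day 4, which was 2.24-fold lower (2.20 to 2.28) on partly fractional counts. Its relative Cyr61 was 1.81-fold lower (1.77 to 1.84).

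Of 20 compared matrix proteases and inhibitors, 2 (10%) were at least 2-fold higher and 3 (15%) lower, against 5.08% and 2.35% of all compared genes. Plaur, the receptor that holds urokinase at the cell surface, was 2.23-fold lower (2.08 to 2.39), while Plat (tissue plasminogen activator) was 2.30-fold higher (2.11 to 2.51) and Plau (urokinase) had a log2 ratio of -0.04. Mmp13, the collagenase of bone and cartilage, read 8.54, 7.56 and 7.77 CPM on day 2 and 68.7, 65.3 and 66.4 CPM on day 4, which was 8.40-fold higher (7.49 to 9.44). The gelatinase Mmp2 and the membrane protease Mmp14 were 1.25-fold and 1.06-fold higher. Timp3, a metalloproteinase inhibitor bound to matrix, was 2.15-fold lower (2.12 to 2.17) on fractional counts, and Timp1 was 1.13-fold lower.

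**Figure D4:**
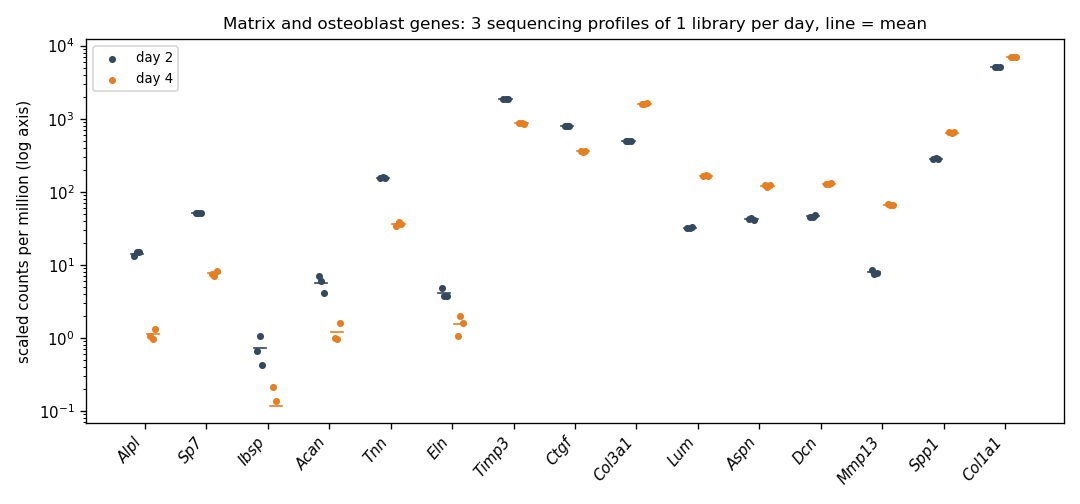
Scaled CPM on a log axis for 15 matrix and osteoblast genes, with 3 points for the 3 lanes of each day's single library and a line at their mean. Alpl, Sp7, Ibsp, Acan, Tnn, Eln, Timp3 and Ctgf sit lower on day 4 and Col3a1, Lum, Aspn, Dcn, Mmp13 and Spp1 higher, with Col1a1 1.37-fold higher. The third day-4 lane of Ibsp held 0 counts and has no point.

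Alpl showed the largest fall of any list member, and Sp7 was next among the listed matrix and osteoblast genes. Alpl (chr4:137297648-137352299 of NCBIM37) read 13.1, 14.8 and 14.8 CPM on day 2 and 1.07, 0.972 and 1.32 CPM on day 4, which was 12.7-fold lower (9.43 to 17.4). Sp7 (chr15:102187040-102197285) read 51.3, 50.7 and 51.3 CPM on day 2 and 7.45, 7.08 and 8.33 CPM on day 4, which was 6.71-fold lower (5.97 to 7.56). Ibsp (bone sialoprotein) was 6.16-fold lower (2.37 to 20.4) on 30 and 5 counts, and Smpd3, a sphingomyelinase needed for mineralization, 2.63-fold lower (1.17 to 6.45) on 23 and 9, with a log2 ratio of -0.85 without the third lane. Panx3, a channel protein of osteoblasts and chondrocytes that was in none of the lists, was 8.73-fold lower (7.01 to 11.0) on 765 and 90 counts. Their later courses differed. Alpl was lowest on day 6 and highest on day 18, at 24.5 CPM. Sp7 was lowest on day 8 and read 14.1 CPM on day 18, which was below its day-2 level.

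The other members of the osteoblast lists lay nearer to day 2. Runx2 was 1.28-fold lower (1.23 to 1.32) and Dlx5, a homeobox factor of bone, 1.84-fold lower (1.58 to 2.15). Of 11 compared osteoblast lineage factors Sp7 alone passed 2-fold. Spp1 (osteopontin) went the other way, from 282, 289 and 281 CPM on day 2 to 652, 640 and 648 CPM on day 4, a 2.28-fold higher level (2.23 to 2.33). Late markers were nearly absent at this stage, with 5 and 1 counts for Bglap (osteocalcin), 4 and 3 for Dmp1 and 0 for Sost and Mepe. The osteoblast markers used to check the cell type label were thus present on both days only in part. Col1a1, Col1a2 and Runx2 were readily detected, Ibsp was scarce and osteocalcin was near 0. Sp7 stood at 32.3 TPM on day 2 and 5.18 on day 4, and Alpl at 9.13 and 0.857 TPM.

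BMP-responsive genes were mostly lower as well. This list of 17 was drawn up after the values were seen, so its direction is a description only. Of 16 compared genes, 10 (62.5%) were at least 2-fold lower and 1 (6.25%) was higher, against 2.35% and 5.08% of all compared genes. The median log2 ratio was -1.37. Id1, an inhibitor of differentiation induced directly by BMP, read 23.3, 24.7 and 24.5 CPM on day 2 and 8.96, 8.75 and 7.84 CPM on day 4, which was 2.84-fold lower (2.52 to 3.21). Its relative Id2 was 2.65-fold lower (2.33 to 3.01). The inhibitory Smads that close the feedback loop were lower as well, Smad6 by 3.60-fold (3.14 to 4.14) and Smad7 by 2.07-fold (1.93 to 2.21), as were the transcription factors Hey1, Hey2 and Atoh8, by 5.96-fold, 4.93-fold and 3.01-fold. Secreted BMP antagonists did not share 1 direction. Nog (noggin) was 5.61-fold lower (3.61 to 9.07), whereas Grem1 was 2.09-fold higher (1.95 to 2.23). The ligands Bmp2 and Bmp4 had log2 ratios of -0.77 and 0.25.

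**Figure D5:**
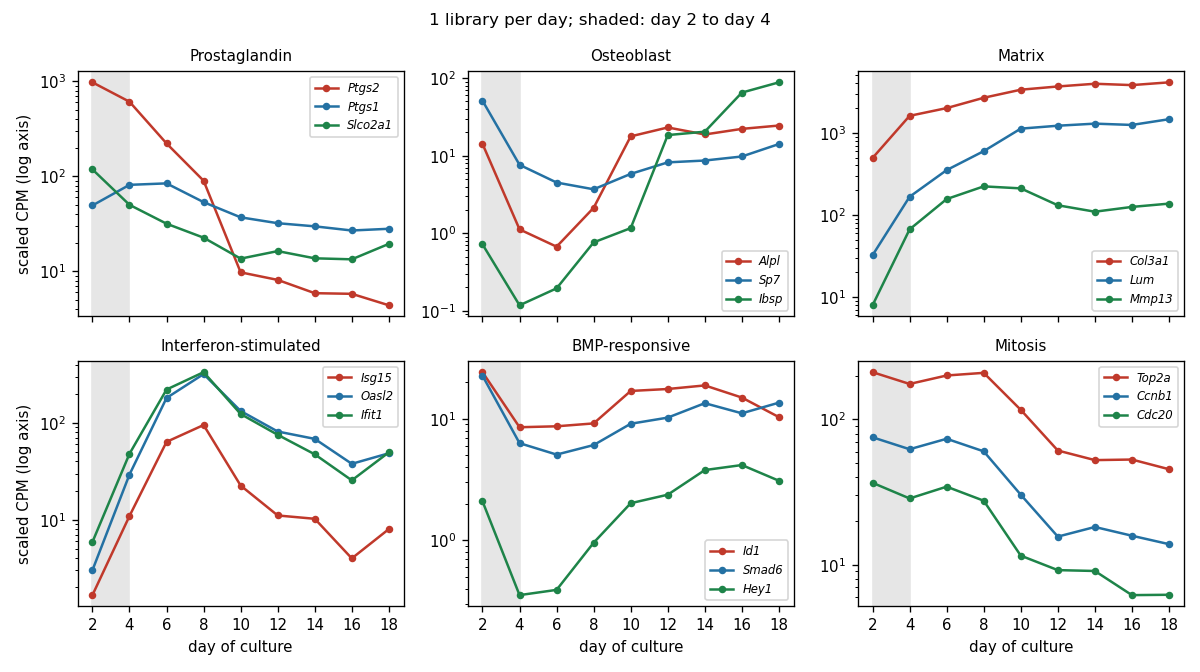
Scaled CPM on a log axis for 18 genes over the 9 days, 1 library per day, with the step from day 2 to day 4 shaded. Ptgs2 went on down after day 4, Alpl was lowest on day 6 and passed its day-2 level later, Sp7 stayed below its day-2 level through day 18, and the interferon-stimulated genes were highest on day 8.

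Interferon-stimulated genes, which code for antiviral proteins and are switched on together by interferon receptors, were mostly higher on day 4. This list of 40 was also drawn up after the values were seen, so its direction and counts are a description only. Of 37 compared genes, 31 (83.8%) were at least 2-fold higher and 0 lower, against 5.08% and 2.35% of all compared genes. In this list 37 of 37 lay above their day-2 level, and the median log2 ratio was 1.99. Isg15, a ubiquitin-like protein, read 1.69, 1.43 and 1.85 CPM on day 2 and 11.3, 9.72 and 11.7 CPM on day 4, which was 6.59-fold higher (5.11 to 8.61). Oasl2, a relative of the 2′-5′ oligoadenylate synthetases, read 2.95, 3.49 and 2.57 CPM on day 2 and 28.2, 28.9 and 31.0 CPM on day 4, which was 9.77-fold higher (8.13 to 11.8). Rsad2 (viperin) had 3 counts on day 2 and 88 on day 4, a 28.5-fold higher level (9.45 to 141). In each of these genes the profiles of the days did not overlap, and that held for 57.6% of all compared genes.

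The transcription factors of the pathway were among the members. Stat2 was 3.10-fold higher (2.85 to 3.38), Irf9 2.25-fold (2.01 to 2.51) and Irf7 4.47-fold (3.29 to 6.17). Ifit1 and Ifit3, which bind foreign RNA, were 8.18-fold and 9.26-fold higher on fractional counts, so reads may be shared with their close relatives. Levels on day 4 were still modest, with 34.8 TPM for Isg15 and 30.8 for Ifit1. The genes had not peaked, as 33 of the 37 were highest on day 8.

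Promoter stretches of 5 of these genes are shown because GAAANNGAA, the core of the interferon-stimulated response element (N stands for any base), was common among them. Of the 37 genes 30 matched 33 RefSeq windows, and 18 of the 33 (54.5%) held the letters on either strand, against 8.56% of all windows. The sequences run 5′ to 3′ along the gene, with the matched letters in capitals and neighbouring matches run together, from chr4:156200856-156200916 (minus strand) for Isg15, chr12:26456543-26456591 (minus) for Rsad2, chr19:34640760-34640833 (plus) for Ifit1, chr19:34583354-34583455 (plus) for Ifit3 and chr5:92349074-92349122 (minus) for Cxcl10, all in GRCm38.p6.
Isg15: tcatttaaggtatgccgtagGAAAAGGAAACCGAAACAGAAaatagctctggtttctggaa
Rsad2: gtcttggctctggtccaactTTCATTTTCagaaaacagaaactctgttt
Ifit1: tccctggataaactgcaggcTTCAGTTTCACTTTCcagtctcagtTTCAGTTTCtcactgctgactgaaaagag
Ifit3: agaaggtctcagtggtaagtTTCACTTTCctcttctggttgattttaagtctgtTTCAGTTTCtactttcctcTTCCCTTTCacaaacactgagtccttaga
Cxcl10: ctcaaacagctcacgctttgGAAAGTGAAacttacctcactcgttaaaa
Isg15, Ifit1 and Ifit3 each held 3 matches in the stretch shown and Rsad2 and Cxcl10 held 1. The nearest to the start lay 58 bases before it, in Isg15. For comparison, GGANTTTCC, a core of the NF-kB site, stood in 3 of 7 windows of the compared CXC and CX3C chemokines, against 1.25% of all windows. No binding was measured in these samples.

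Outside the lists, the largest rise among genes of at least 10 TPM was that of Apod (apolipoprotein D, a lipid carrier), with 5.23, 4.06 and 3.99 CPM on day 2 and 62.8, 62.5 and 61.4 CPM on day 4, which was 14.1-fold higher (12.1 to 16.4). Others were Agtr2, an angiotensin receptor, at 5.46-fold (4.10 to 7.39), and 1500015O10Rik at 5.88-fold (5.03 to 6.90). At lower levels Serpina3n, an acute-phase protease inhibitor, had 7 and 161 counts and was 22.4-fold higher (10.6 to 56.6), and Doc2b, a calcium sensor of vesicle release, had 1 and 44 counts, a ratio of 42.8 with an interval of 7.30 to 1729. The largest falls at 10 TPM or more included U90926 (15.6-fold, 8.26 to 33.2), Fabp7, a fatty acid binding protein (10.7-fold, 7.41 to 15.8), Rasgrp3, a Ras activator (4.33-fold, 4.03 to 4.67), and Crispld2 (3.94-fold, 3.69 to 4.21). Several extreme ratios rested on fractional counts that differed between lanes of 1 library. Kctd12, a pseudogene in the annotation, read 0.411, 47.3 and 0.920 CPM in the 3 day-4 profiles, and Gm8116, Map3k4 and Moap1 were listed with 0 counts on day 4 in the same uncertain class.

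Genes that respond within minutes to serum or stress lay mostly lower on day 4. Of 23 compared, 19 were below day 2, against 50.1% of all compared genes, and 2 were at least 2-fold lower, against 2.35%. Dusp1, a phosphatase that shuts off stress kinases, was 2.13-fold lower (2.04 to 2.23), and Atf3 was 2.40-fold lower (1.18 to 5.18) on 28 and 12 counts, with a log2 ratio of -0.965 without the first lane. Fos was 1.51-fold lower (1.28 to 1.78).

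Markers of other cell types were checked on both days. Neutrophil, mast cell, lymphocyte and red blood cell lists had 0 members with enough counts to compare. The 7 monocyte and macrophage markers summed to 23.6 to 25.1 TPM over the day-2 profiles and 34.4 to 38.1 TPM over the day-4 profiles, with 5 compared and 0 past 2-fold. Of those, Lyz2 was 1.49-fold higher (1.35 to 1.66) and Csf1r 1.87-fold lower (1.38 to 2.56), while Itgam (13 and 23 counts), Cd14 (31 and 46) and Cd68 (38 and 34) had intervals that held 1. Among 4 compared osteoclast markers, Acp5 (19 and 60 counts) and Oscar (5 and 29 counts) were at least 2-fold higher, Ctsk was 1.59-fold higher (1.49 to 1.71) and Tnfrsf11a, the receptor of RANKL, was 1.84-fold lower (1.28 to 2.68). Calcr and Dcstamp had 0 counts. Kdr, a vascular growth factor receptor of endothelial cells, was 7.01-fold lower (4.70 to 10.8), and it was the one of 3 compared endothelial markers past 2-fold. Of these 3, 2 lay below day 2 and 1 above, at 1.315-fold higher. The 5 listed endothelial markers summed to 3.24 TPM on day 2 and 4.10 on day 4. Of 3 compared chondrocyte markers, 2 lay below day 2 and 1 above, at 1.67-fold higher. Pparg, a regulator of fat cells, was 2.68-fold lower (2.10 to 3.46). Of 5 compared smooth muscle or myofibroblast markers, 4 lay below day 2 and 1 above, with 0 past 2-fold and a median log2 ratio of -0.48. The furthest below were Acta2 and Tagln, both 1.59-fold lower, and Acta2 stood at 5155 TPM on day 2. The member above was 1.226-fold higher. Whether a changing mix of cells took part in the differences was not tested, and in bulk RNA fewer cells of a type and less RNA per cell cannot be told apart.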

How the data were processed

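Total RNA was amplified with NuGEN Ovation and made into Illumina TruSeq libraries. Per the labels and the study's methods, the authors aligned reads with Bowtie 0.12.9 to NCBIM37 transcripts and estimated gene levels with RSEM (1.2.8 per the submitters' processing notes). The authors deposited, for each profile, expected counts per gene, estimated from reads shared among transcripts, and TPM. Symbols came from the GENCODE vM1 annotation, which matched 37205 of 37991 identifiers. Profiles of a day were summed, rounded to whole counts and scaled by edgeR 4.0.16 upper-quartile factors (R 4.3.3) over the 9 days. Deposited TPM were scaled to a common 75th percentile and averaged. A ratio took a count of 0 as 3, and exact 95% binomial intervals (scipy 1.17.1) cover counting error only. No p-value was computed, since each day was 1 library. Ratios and calls were checked on data simulated with known folds. Named genes were the 10 largest rises and falls, overall and at 10 TPM or more, up to 5 called members each way per list, and prostaglandin genes. A few other genes and list members were named after their values were seen. Members, lists and motifs were chosen with earlier results of these data known. Alternatives were TMM, DESeq2 1.42.0 size factors, total counts with and without mitochondrial genes, other count minimums, deposited TPM, whole-number counts and leaving out a lane. A few members of the lists are counted but not reported here by name.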

Additional observations from a re-analysis of the deposited data

How the results depend on the processing

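The 702 higher and 325 lower genes became 2267 and 1824 with no minimum beyond 1 count, 168 and 93 with at least 300 counts, 1615 and 798 at 1.5-fold, and 150 and 60 at 4-fold. The stricter minimum tests fewer genes. With at least 300 counts, the inflammatory genes had 7 higher and 0 lower, the prostaglandin genes 0 and 1, and the matrix genes 6 lower. With no minimum beyond 1 count there were 8 lower inflammatory, 3 higher prostaglandin and 17 higher matrix genes. Leaving out 1 lane gave 0 to 3 lower inflammatory genes (0 without the third lane) and a log2 ratio of Hspa14 between -0.039 and 3.96, where nearly all day-4 counts came from the first lane. Over all genes, fractional counts included, lanes differed by a chi-square per degree of freedom of 1.21 on day 2 and 1.29 on day 4. Counts of calls over all genes and over the inflammatory, prostaglandin, cell cycle and matrix genes stayed within 1.5 times under TMM, DESeq2, total-count and TPM scalings, with a median log2 shift of at most 0.08. Of single lists, the higher CXC and CX3C chemokines and fibrillar collagens each went from 2 to 1 and the cell cycle entry genes from 1 to 0 under TMM and DESeq2. In TPM the higher entry genes were 2, the higher adhesive matrix genes 4 instead of 2, and the lower immediate early genes 1 instead of 2. Of 91 compared named genes past 2-fold, 13 fell short under at least 1 alternative. Moap1 had a log2 ratio of -0.039 without the first lane, Gm4294 of -0.039 without the third and Gm13597 of 0.376 without the second, while the other 9 lay between 0.647 and 0.995 in size and in their own direction. No paired analysis was possible because each day was 1 library and no result came from a test. Depth limited genes under about 30 counts, where intervals spanned several-fold.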

Other observations

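Gene-level TPM and counts parted for some genes. Of 13742 compared genes with TPM above 0 on both days, 160 had log2 ratios in scaled TPM and in counts that differed by at least 1, and 41 of these reached 10 TPM on either day. E2f3, a driver of entry into the cell cycle, had 1559 and 1620 counts but went from 12.1 to 40.4 TPM. Cbl, a ubiquitin ligase for growth factor receptors, had 3275 and 2866 counts but went from 130 to 22.1 TPM. Acaca, the first enzyme of fatty acid synthesis, had 3443 and 3822 counts and went from 16.2 to 59.1 TPM. Wnt16 had 18 counts on each day and read 18.7 and 0.380 TPM. The part that assignment of reads to transcripts of different length took in these differences was not tested.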
